A study of Mus musculus with 2 samples.

Results

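The 10 genes described here encode subunits of 3 ring-shaped chromosome complexes, condensin I, condensin II and SMC5/6. They were taken by symbol from the 51840 genes of the deposited table (Smc2, Smc4, Ncapd2, Ncapg, Ncaph, Ncapd3, Ncapg2, Ncaph2, Smc5 and Smc6). They had been picked because their values differed between the 2 libraries, with Ncaph2 opposite to the SMC subunits, so every difference below is a description and nothing is tested with it. The study profiled bulk RNA of CH12F3, a mouse B cell lymphoma line, and of CH12F3 cells labelled Lig4-/-, which should lack DNA ligase IV, the enzyme that seals breaks in nonhomologous end joining. Both lines were grown in RPMI medium with 10% serum, with no other treatment named, and the sources used here do not say how the Lig4-/- line was made or whether it is 1 clone. Each line had 1 library, so no spread between replicates could be estimated and no p-value was computed. Values are FPKM, fragments counted per length of transcript and relative to all mapped fragments, and a log2 ratio compares the library with the Lig4-/- label to CH12F3 after 1 FPKM is added to each value, so that a positive value means a higher level under that label.

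Condensins shape mitotic chromosomes by extruding and holding loops of DNA. Both condensins are built on the same pair of ATPases, SMC2 and SMC4, and differ in their other subunits: a kleisin that closes the ring (NCAPH in condensin I, NCAPH2 in condensin II) and a pair of HEAT-repeat proteins (NCAPD2 and NCAPG, or NCAPD3 and NCAPG2). Condensin II is in the nucleus throughout the cell cycle, whereas condensin I reaches the chromosomes once the nuclear envelope breaks down. SMC5 and SMC6 form the core of a separate complex, which acts in recombination repair, in the resolution of joined DNA molecules and in the restriction of extrachromosomal DNA.

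The table summed to 1020856 FPKM in CH12F3 and 962435 FPKM in the library with the Lig4-/- label, and read depth is unknown. Of all genes, 11437 had a mean of at least 1 FPKM and are called expressed, and their median log2 ratio was 0.17. Lig4 itself was listed at 0.13 FPKM in CH12F3 against 0.64 FPKM in the other library, so it was under 1 FPKM in both, no lower under the Lig4-/- label, and did not check that label. All 5 B cell markers were expressed (summed FPKM 1348 in CH12F3, 899 in the other library). The lower sum is that of Cd79b (1187 and 481 FPKM), while Cd79a (135 and 331), Ms4a1 (3.28 and 22.7), Pax5 (3.52 and 7.02) and Ptprc (19.9 and 57.1) were higher under the Lig4-/- label. Of markers of other cells, 1 of 4 T cell, 3 of 3 myeloid, 1 of 2 erythroid, 0 of 2 fibroblast and 0 of 2 epithelial genes were expressed. Given in the same order of libraries, the summed FPKM was 8.32 and 3.05 for T cells, 3.61 and 8.70 for myeloid cells, 30.5 and 23.6 for erythroid cells, 0.31 and 0.14 for fibroblasts, and 0.50 and 0.33 for epithelium. The expressed T cell gene was Cd4 (7.42 and 2.64 FPKM) and the expressed erythroid gene Hba-a1 (30.5 and 23.6 FPKM). The myeloid genes were Lyz2 (0.69 and 4.07 FPKM), Itgam (0.98 and 1.49) and Csf1r (1.94 and 3.14). Cd3e was at 0.03 and 0 FPKM, and Hbb-bt and Epcam were listed at 0 in both libraries. The part of these markers in the differences below was not tested.

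Promoters of 9 members, all but Smc4, were matched in RefSeq (GRCm38.p6), each from 250 bases before to 50 after an annotated start. Those of a pair that was higher in the library with the Lig4-/- label, Smc2 and Ncapg2, and of a pair that was not, Ncapd2 and Ncaph2, are printed so that the 2 kinds can be set side by side. They lie at chr4:52438971-52439270 (plus strand), chr12:116405186-116405485 (plus), chr6:125191537-125191836 (minus) and chr15:89355469-89355768 (plus). Capitals mark, on either strand, the cell cycle genes homology region (TTTGAA in its usual form, CTTGAA as a variant, TTTAAA as another and TTCGAA as the last), which the MuvB complex reads in many mitotic genes, the CCAAT box (CCAAT, bound by NF-Y) and an E2F-like run (GCGGGAA).
Smc2: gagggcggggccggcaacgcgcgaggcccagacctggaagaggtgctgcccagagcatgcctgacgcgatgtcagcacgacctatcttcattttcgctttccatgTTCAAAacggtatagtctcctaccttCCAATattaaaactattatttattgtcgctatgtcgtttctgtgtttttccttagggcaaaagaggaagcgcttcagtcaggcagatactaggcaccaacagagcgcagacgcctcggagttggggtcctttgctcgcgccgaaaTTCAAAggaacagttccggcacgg
Ncapg2: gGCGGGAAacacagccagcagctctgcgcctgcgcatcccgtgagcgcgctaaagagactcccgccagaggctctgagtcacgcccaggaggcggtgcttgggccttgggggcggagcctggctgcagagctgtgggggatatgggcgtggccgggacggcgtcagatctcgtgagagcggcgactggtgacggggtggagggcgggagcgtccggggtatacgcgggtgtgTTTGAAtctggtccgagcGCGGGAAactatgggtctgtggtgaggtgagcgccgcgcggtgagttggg
Ncapd2: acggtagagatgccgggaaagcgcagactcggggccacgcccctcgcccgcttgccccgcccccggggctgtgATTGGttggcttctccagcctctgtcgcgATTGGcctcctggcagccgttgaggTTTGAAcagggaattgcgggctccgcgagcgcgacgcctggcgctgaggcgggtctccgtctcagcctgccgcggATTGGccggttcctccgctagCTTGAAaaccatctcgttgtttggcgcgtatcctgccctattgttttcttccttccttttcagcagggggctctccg
Ncaph2: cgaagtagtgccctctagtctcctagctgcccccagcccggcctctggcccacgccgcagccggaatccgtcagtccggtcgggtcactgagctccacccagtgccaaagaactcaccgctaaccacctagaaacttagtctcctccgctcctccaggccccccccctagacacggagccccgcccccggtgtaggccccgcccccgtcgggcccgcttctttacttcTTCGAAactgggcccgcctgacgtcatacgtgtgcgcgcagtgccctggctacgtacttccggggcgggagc
The 9 members had 10 promoters, since Ncapd3 had 2, and a homology region match was found in 7 of the 10, against 37.3% of all 32851 RefSeq promoters of this length. The promoter at the start of Ncapd3 held no match, and its match lay in the other, at chr9:27060166-27060465 (plus) within the gene. The only promoter of Smc5, at chr19:23272550-23272849 (minus), also lay within the gene and held no match. The outer start of Smc5, at 23273897, was thus not examined. The first base of a homology region match lay 30 bases before the start in Ncapg, 27 in Ncapd2, 22 in Ncaph2 and 18 in Ncapg2. Of all promoters, 4.39% held a match that began within those last 30 bases, a window chosen after these matches were seen. CCAAT was found in Smc2, Ncapg and Ncapd2 (37.4% of all promoters), and GCGGGAA in Ncapg and Ncapg2 (4.60%). Matches near the start thus occurred both in members that were higher in the library with the Lig4-/- label (Ncapg, Ncapg2) and in members that were not (Ncapd2, Ncaph2). A match is a run of letters and not evidence of binding.

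All 10 members were expressed, and 7 were 2-fold or more higher in the library with the Lig4-/- label on the FPKM + 1 scale, 1 2-fold or more lower and 2 within 2-fold. Among all expressed genes 21.0% were higher by this measure, 4.09% lower and 74.9% within 2-fold. The median log2 ratio of the members was 1.74, against 0.17 for expressed genes. Since the members were chosen on this contrast, nothing is read from these counts. When the log2 ratios were centred on the median of expressed genes, 6 members were higher and 1 lower, and with both libraries scaled to the same FPKM total the numbers were 7 and 0. The shares of all expressed genes under these scalings were not computed, so nothing is read from these numbers either. The RNA is bulk, so fewer cells that use a gene and less RNA per cell cannot be told apart.

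**Figure D1:**
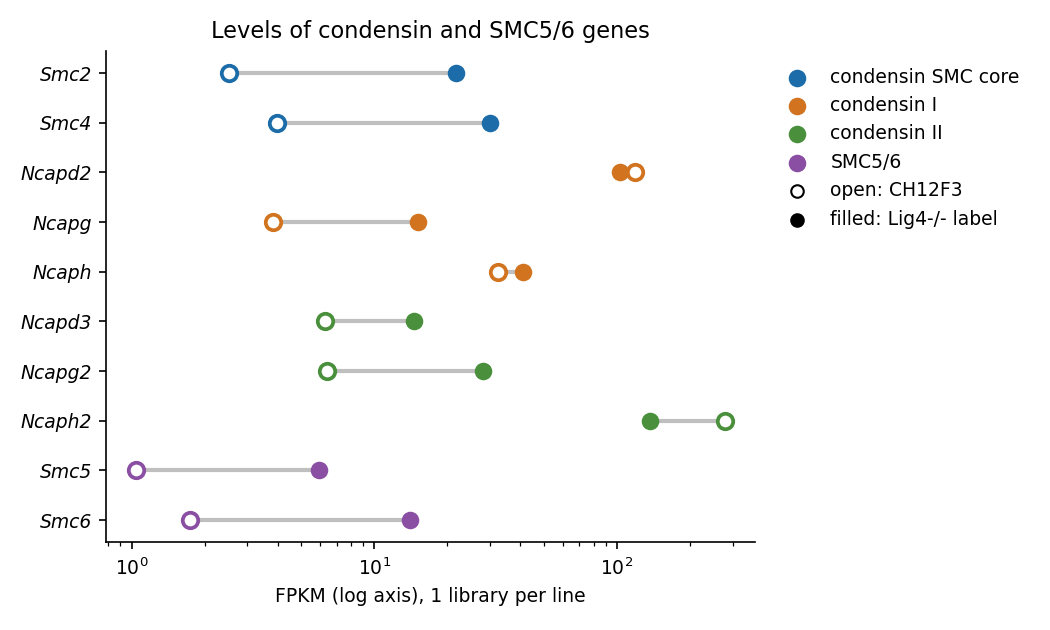
FPKM of the 10 members on a log axis, with open points for CH12F3, filled points for the library with the Lig4-/- label, and colours for the complexes (1 library per line, no error bars). Levels span 1.04 to 279 FPKM in CH12F3 and 5.89 to 136 FPKM in the other library, and only Ncaph2 and Ncapd2 have the filled point on the left.

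The condensin ATPase genes had the largest log2 ratios of the set. Smc2 (ENSMUSG00000028312, chromosome 4, 52439243 to 52488260, plus strand) measured 2.52 FPKM in CH12F3 against 21.7 FPKM in the library with the Lig4-/- label, an 8.63-fold higher FPKM there (log2 ratio 2.69). Its obligate partner Smc4 (ENSMUSG00000034349, chromosome 3, 69004738 to 69034623, plus strand) was at 3.97 and 29.8 FPKM, 7.51-fold higher (log2 ratio 2.63). Both genes were low in CH12F3, at percentiles 19.8 and 27.9 of the FPKM of expressed genes, and above the middle in the other library, at percentiles 60.7 and 68.9. Among the log2 ratios of all expressed genes they stood at percentiles 99.5 and 99.4. The Smc4 locus also spans the microRNA genes Mir15b and Mir16-2, which were listed at 0 in both libraries.

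The kleisin genes differed from this and from each other. Ncaph (ENSMUSG00000034906, chromosome 2, 127103809 to 127133954, minus strand), the kleisin of condensin I, measured 32.4 FPKM in CH12F3 against 40.9 FPKM in the library with the Lig4-/- label (log2 ratio 0.33), within 2-fold. Ncaph2 (ENSMUSG00000008690, chromosome 15, 89355719 to 89372826, plus strand), the kleisin of condensin II, was at 279 and 136 FPKM, 2.04-fold lower in the library with the Lig4-/- label (log2 ratio -1.02, percentile 3.81 of expressed genes). It was the most abundant member in both libraries and lay just past the 2-fold line, with Ncapd3 (log2 ratio 1.10) the nearest member past it on the other side. The 3′ end of Ncaph2 overlaps Sco2 by 1190 bases and Tymp by 896 bases on the opposite strand. Sco2 measured 20.1 FPKM in CH12F3 against 13.0 FPKM in the other library, and Tymp 5.25 against 1.96 FPKM, both well under Ncaph2. The strand setting of the counting is not given, so reads of the overlapped bases could belong to either gene.

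Among the HEAT-repeat subunits, Ncapd2 was within 2-fold while the other 3 were higher in the library with the Lig4-/- label. Ncapd2 (ENSMUSG00000038252, chromosome 6, 125168007 to 125191701, minus strand), of condensin I, measured 119 FPKM in CH12F3 against 103 FPKM in the other library (log2 ratio -0.21). Ncapg (ENSMUSG00000015880, chromosome 5, 45669919 to 45700546, plus strand), also of condensin I, was at 3.84 and 15.1 FPKM (3.93-fold higher FPKM, log2 ratio 1.73). Condensin I thus held 1 gene more than 2-fold higher and 2 within 2-fold. Ncapd3 (ENSMUSG00000035024, chromosome 9, 27030175 to 27095315, plus strand), of condensin II, was at 6.26 and 14.6 FPKM (2.33-fold, log2 ratio 1.10). Ncapg2 (ENSMUSG00000042029, chromosome 12, 116405402 to 116463731, plus strand) was at 6.41 and 27.9 FPKM (4.36-fold, log2 ratio 1.97). Condensin II therefore held both directions, with its HEAT-repeat genes higher and its kleisin gene lower in the library with the Lig4-/- label.

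The SMC5/6 pair was the least abundant and was higher in the library with the Lig4-/- label. Smc5 (ENSMUSG00000024943, chromosome 19, 23206451 to 23273897, minus strand) measured 1.04 FPKM in CH12F3 against 5.89 FPKM in the other library (5.66-fold, log2 ratio 1.76), the lowest member in both. Smc6 (ENSMUSG00000020608, chromosome 12, 11265886 to 11319785, plus strand) was at 1.74 and 13.98 FPKM (8.03-fold, log2 ratio 2.45). All 4 SMC genes were 2-fold or more higher, with log2 ratios from 1.76 to 2.69. The share was 21.0% among all expressed genes. It was 72.1% among the 1141 with the lowest GC content of their transcripts, to which all 4 belonged. The members were chosen on this contrast, so nothing is read from this count. With a pseudocount of 5 FPKM in place of 1, Smc5 (log2 ratio 0.85) was within 2-fold, so its size depends on values close to 1 FPKM, where the precision is unknown.

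The order of levels within a library changed little at both ends and more in the middle. From highest to lowest, CH12F3 had Ncaph2, Ncapd2, Ncaph, Ncapg2, Ncapd3, Smc4, Ncapg, Smc2, Smc6 and Smc5. In the library with the Lig4-/- label, Ncaph2, Ncapd2 and Ncaph again came first and Smc6 and Smc5 last, but Smc4 stood at rank 4, Smc2 at rank 6 and Ncapd3 at rank 8. The most abundant member exceeded the least abundant 268-fold in CH12F3 and 23.2-fold in the other library. Of the 8 condensin genes, 3 exceeded 10 FPKM in CH12F3 and 8 did in the library with the Lig4-/- label. The median of expressed genes was 11.1 FPKM in CH12F3 and 14.6 FPKM in the other library. The share of expressed genes above 10 FPKM was not computed, so nothing is read from this count. Without replicates, it is not known which neighbours in these orders differ beyond their spread.

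Because FPKM is scaled to transcript length, subunits can be set against each other within a library, and such a ratio does not depend on how the library was scaled. Levels within a library were not adjusted for GC content, which differs between subunits (39.7% in Smc2, 55.7% in Ncaph2). The part of GC content in these levels was not tested. Ncaph2 supplied 61.5% of the summed FPKM of the 8 condensin genes in CH12F3 and 35.1% in the library with the Lig4-/- label. Smc2 and Smc4 together supplied 1.43% and 13.3%, while Ncapd2 supplied 26.3% and 26.4%. Ncaph2 exceeded Smc2 in FPKM 111-fold in CH12F3 and 6.28-fold in the other library. The ratio of Smc2 to Ncaph2 thus differed 17.6-fold between the libraries (log2 change 4.14). On the FPKM + 1 scale that change was 3.72, and 2.01 after the GC adjustment described below, which uses that scale.

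The pairs differed in how far their ratio moved between the libraries. Smc4 exceeded Smc2 1.58-fold in CH12F3 and 1.37-fold in the library with the Lig4-/- label, and Smc6 exceeded Smc5 1.67-fold and 2.37-fold. Ncapg2 exceeded its counterpart Ncapg 1.67-fold and 1.85-fold. Between the kleisins, Ncaph2 exceeded Ncaph 8.60-fold in CH12F3 and 3.34-fold in the other library. Ncapd2 exceeded Ncapd3 19.0-fold and 7.02-fold. As deposited, the kleisin and Ncapd2 to Ncapd3 ratios thus moved furthest of these 5 pairs (log2 changes 1.36 for Ncaph to Ncaph2 and -1.44), but after GC adjustment that order turned. The GC adjustment works on the FPKM + 1 scale, where the unadjusted changes were 1.35 for Ncaph to Ncaph2 and -1.32 for Ncapd2 to Ncapd3. On that scale they were -0.23 for Ncapg to Ncapg2, -0.69 for Smc5 to Smc6 and 0.059 for Smc2 to Smc4. The adjusted changes were 0.69 for Ncaph to Ncaph2 and -0.58 for Ncapd2 to Ncapd3. They were -0.75 for Ncapg to Ncapg2, -0.85 for Smc5 to Smc6 and 0.0095 for Smc2 to Smc4. Summed over the 3 specific subunits, condensin I to condensin II was 0.533 in CH12F3 (155 to 291 FPKM) and 0.885 in the library with the Lig4-/- label (158 to 179 FPKM). That sum is mostly Ncapd2 on 1 side and Ncaph2 on the other. Levels of transcripts do not give the number of complexes.

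**Figure D2:**
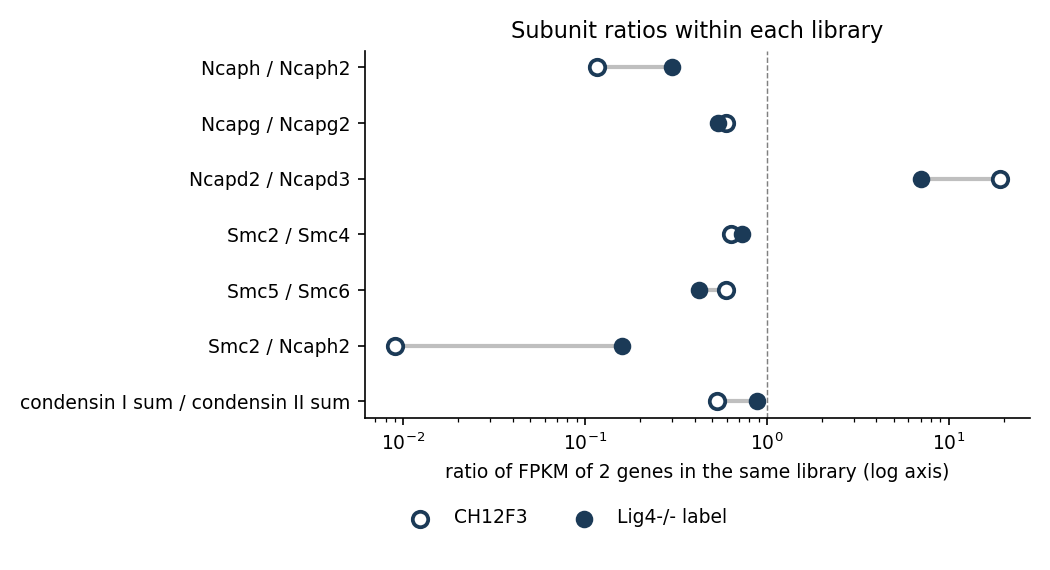
Ratio of the FPKM of 2 genes, or of the sums of the 3 condensin I and 3 condensin II subunits, in the same library on a log axis, with open points for CH12F3 and filled points for the library with the Lig4-/- label. The Smc2 to Ncaph2 ratio lies at 0.00904 in CH12F3 and 0.159 in the other library, whereas the Smc2 to Smc4 ratio lies at 0.635 and 0.729.

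Transcript composition lined up with these differences. The GC content of the longest protein-coding transcript ran from 38.7% in Smc5 to 55.7% in Ncaph2, and all 7 members that were 2-fold or more higher lay between 38.7% and 46.8%, under the median of 50.2% for expressed genes. Ncaph, Ncapd2 and Ncaph2, the members that were not, had 48.3%, 54.0% and 55.7%. Across the 10 members Pearson's r of log2 ratio with GC content was -0.94 and Spearman's rho -0.77, given as a description of genes that share the same 2 libraries and were chosen for their differences. With the coding sequence alone r was -0.97. Over the 11404 expressed genes with a GC content rho was -0.66.

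Many genes of the same composition were higher too. Smc2, Smc4, Smc5, Smc6 and Ncapg belonged to the decile of expressed genes poorest in GC, in which 72.1% of 1141 genes were 2-fold or more higher in the library with the Lig4-/- label and the median log2 ratio was 1.38. Ncapg2 belonged to decile 2 (median 1.07, 53.6% 2-fold or more higher) and Ncapd3 and Ncaph to decile 4 (0.49, 21.6%). Ncapd2 and Ncaph2 belonged to decile 8, where the median was -0.27 and 6.84% were 2-fold or more lower. Ncapd2 lay 0.059 above its decile's median and Ncaph -0.16 from its own. Smc2, Smc4 and Smc6 stood 1.31, 1.25 and 1.07 above theirs, and the distance of Ncaph2 was -0.75. Ncapg2 stood 0.90 above its own, Ncapd3 0.62, Smc5 0.38 and Ncapg 0.35.

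**Figure D3:**
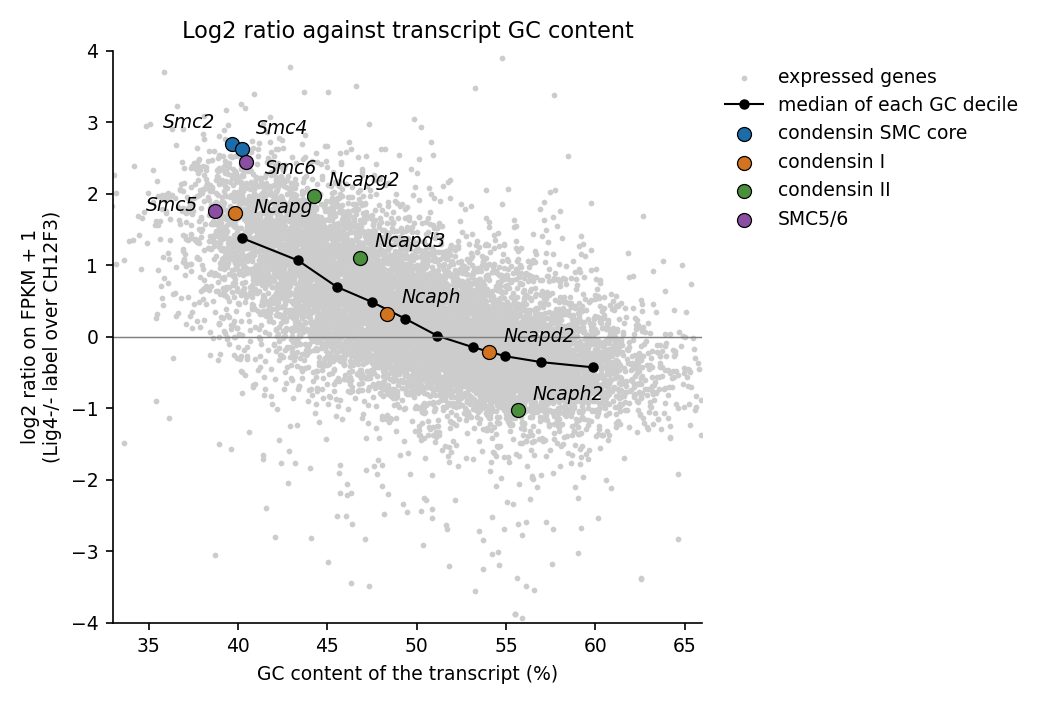
Log2 ratio on the FPKM + 1 scale against the GC content of the transcript in percent, with grey points for expressed genes, black points for the median of each GC decile and coloured points for the members (70 genes outside the axes are not drawn). Smc2, Smc4 and Smc6 sit furthest above the decile medians, at about 40% GC, with Ncapg2 (44.3% GC) next. Ncaph and Ncapd2 lie on the medians, and Ncaph2 below them at 55.7% GC.

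When a smooth curve of log2 ratio on GC content was subtracted, Smc2 (GC-adjusted log2 ratio 1.25), Smc4 (1.24), Smc6 (1.09) and Ncapg2 (1.07) were still 2-fold or more higher in the library with the Lig4-/- label. Of expressed genes, 5.42% were higher and 5.42% lower by that measure after this adjustment, whose curve is fitted to these same ratios and so centres them near 0. Ncapd3 (0.54), Ncapg (0.31) and Smc5 (0.24) were then within 2-fold, as was Ncaph2 (-0.75), which remained the lowest member. Ncapd2 (-0.042) and Ncaph (-0.058) were near 0, and Ncaph changed sign. The adjusted median of the members was 0.43, against -0.017 for expressed genes. The adjusted values of the members still declined with GC content (r = -0.75 over 10 genes). An adjustment for transcript length as well brought Ncapg2 (0.96) and Smc6 (0.94) just within 2-fold and left Smc2 (1.12) and Smc4 (1.16) past it. The part of base composition in the differences was not tested, since with 1 library per line it cannot be told apart from the line.

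**Figure D4:**
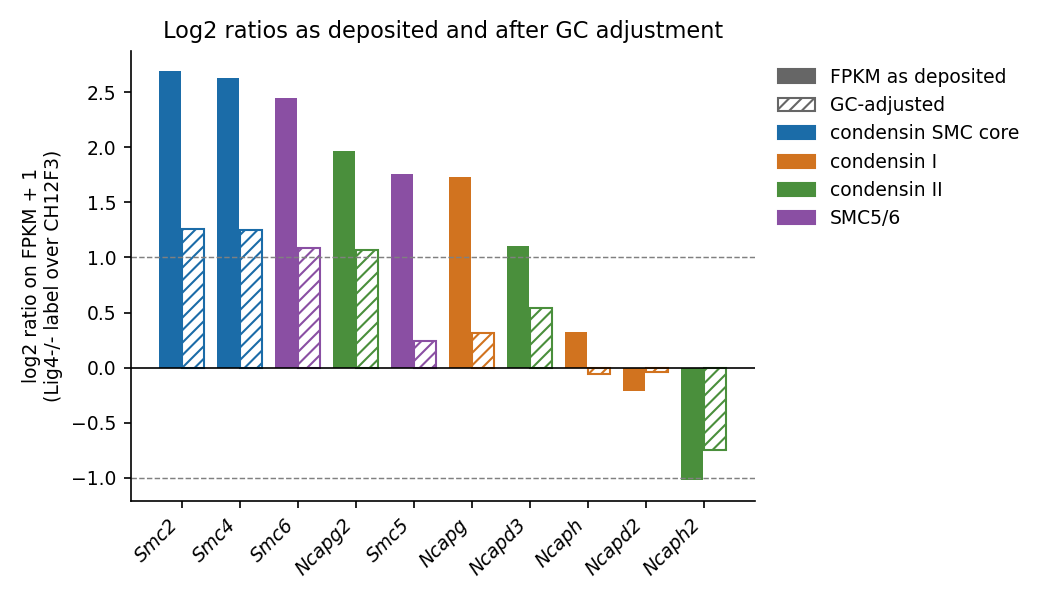
Log2 ratio of each member on the FPKM + 1 scale, as deposited (solid bars) and GC-adjusted (hatched bars), with dashed lines at 2-fold. Smc2 and Smc4 have the highest bars of both kinds (2.69 and 2.63 as deposited, 1.25 and 1.24 GC-adjusted), and Ncaph2 the lowest (-1.02 and -0.75).

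The members also differed in the layout of their transcripts. The annotated 3′ untranslated region was 1605 bases in Smc2, 2377 in Smc5 and 1901 in Smc6, but 97 bases in Smc4, whose log2 ratio was close to that of Smc2. Its GC content was 34.4% in Smc2, 33.2% in Smc5, 36.2% in Smc6 and 26.8% in Smc4, against 54.5% in Ncaph2 (1375 bases). The coding sequences had 40.9% GC in Smc2, 38.6% in Smc4, 42.7% in Smc5, 38.8% in Smc6 and 56.3% in Ncaph2. The longest annotated transcript of Ncapg, at 34.8% GC, is not protein-coding, and on that transcript its GC-adjusted log2 ratio was 0.044.

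The other genes of the SMC5/6 complex did not share one direction. Of 7 listed subunits and loaders 6 were expressed, of which 2 were 2-fold or more higher in the library with the Lig4-/- label and 0 lower (background 21.0% and 4.09%), with a median log2 ratio of 0.63. The 2 were Slf1, at 0.67 FPKM in CH12F3 against 7.96 FPKM in the other library, and Slf2, at 2.10 and 10.5 FPKM, which in human cells bring SMC5/6 to stalled replication forks (log2 ratios 2.42 and 1.89). The lowest were the RING-domain subunit gene Nsmce1, at 60.7 and 39.6 FPKM (log2 ratio -0.60), and the kleisin gene Nsmce4a, at 37.1 and 46.1 FPKM (0.30). The subunit genes Nsmce1 and Nsmce4a thus exceeded Smc5 and Smc6 in FPKM in both libraries, as did Nsmce2 (19.5 and 30.6 FPKM). Nsmce3 (0.78 and 1.76 FPKM) lay below both SMC genes in each library. After GC adjustment no gene of this list was 2-fold apart (Slf2 0.83, Slf1 0.81, Nsmce1 -0.53), against a background of 5.42% higher and 5.42% lower.

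Of 11 partners and regulators of condensin, all expressed, 10 had a log2 ratio above 0. The median of all expressed genes was itself above 0 (0.17). The share of them above 0 was not computed, so nothing is read from the 10. The count 2-fold or more higher in the library with the Lig4-/- label was 4, with 0 lower (background 21.0% and 4.09%), and the median log2 ratio was 0.73. The type II topoisomerase genes Top2b (2.48 and 13.5 FPKM) and Top2a (63.7 and 192 FPKM) had log2 ratios of 2.06 and 1.58. Top2a encodes the enzyme that untangles mitotic chromosomes beside condensin. Csnk2a1, a catalytic subunit of casein kinase 2, was at 13.05 and 37.2 FPKM (1.44), and Mki67, the proliferation marker that coats mitotic chromosomes, at 19.6 and 43.4 FPKM (1.11). The mitotic kinase gene Plk1, at 88.7 and 79.8 FPKM (-0.15), and the cyclin gene Ccnb1, at 112 and 129 FPKM (0.20), were the lowest. After GC adjustment 0 of the 11 were 2-fold apart (background 5.42% higher and 5.42% lower), with a median of 0.51. Plk1 (0.14) and Ccnb1 (-0.71) changed sign.

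Cohesin, the related complex that holds sister chromatids together, shows how the other SMC genes stood. Its 5 listed genes were all expressed, with 3 2-fold or more higher (background 21.0%) and a median log2 ratio of 1.74. Its ATPases Smc1a, at 13.2 FPKM in CH12F3 against 22.9 FPKM in the library with the Lig4-/- label (log2 ratio 0.75), and Smc3, at 5.49 and 20.6 FPKM (1.74), were higher in the same library as the 4 SMC genes above. The kleisin gene Rad21 was at 43.8 and 87.7 FPKM (0.99), in the direction opposite to Ncaph2. The subunit genes Stag2 (2.40 and 27.8 FPKM, 3.08) and Stag1 (0.78 and 5.96 FPKM, 1.97) were highest. After GC adjustment Stag2 (1.51) was the 1 gene of the 5 still 2-fold higher (background 5.42%), while Smc3 was at 0.57, Smc1a at 0.20 and Rad21 at 0.090. Whether cohesin and condensin differed was not tested.

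**Figure D5:**
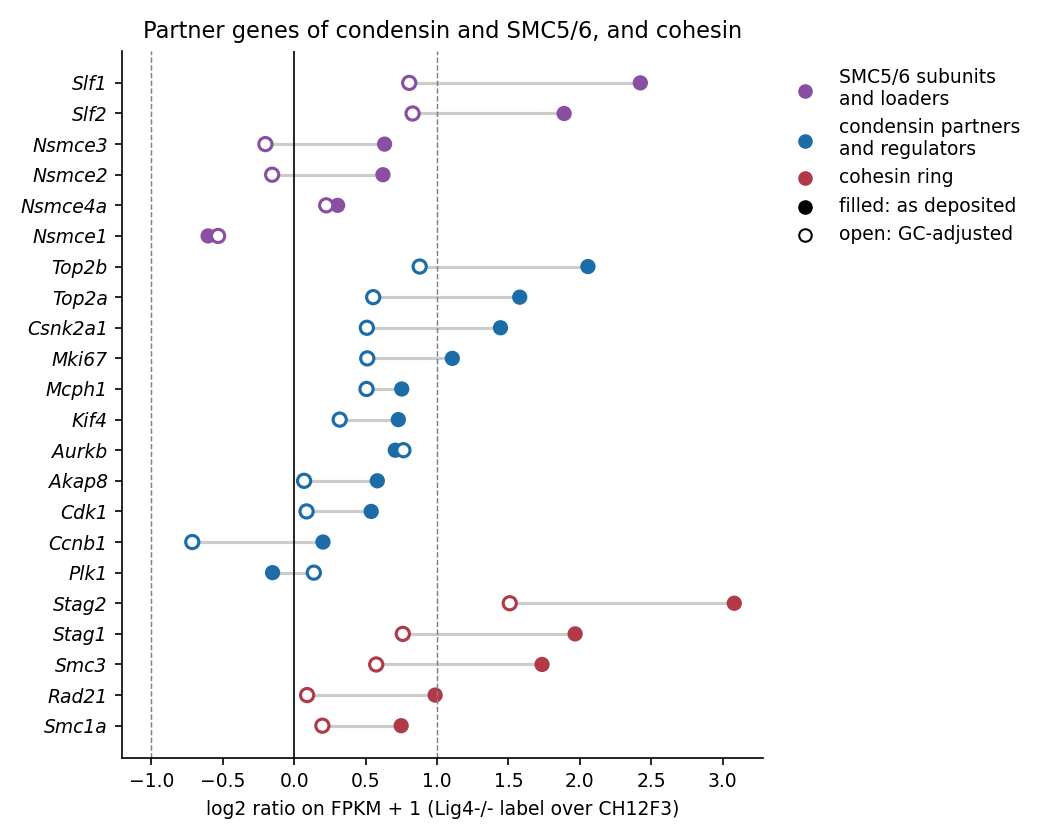
Log2 ratio on the FPKM + 1 scale of the expressed genes of the 3 lists, as deposited (filled) and GC-adjusted (open), with dashed lines at 2-fold. Of the filled points Stag2 is furthest right (3.08) and Nsmce1 furthest left (-0.60), and of the open points Stag2 alone (1.51) lies past 2-fold.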

How the data were processed

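RNA of CH12F3 cells and of CH12F3 cells labelled Lig4-/- was made into libraries from 5 µg of total RNA with an Illumina TruSeq kit, per the labels' protocols. The authors deposited FPKM values with 2 decimals for 53873 features, and each value column was matched to its sample by name. CASAVA, TopHat and the build GRCh38 are named in the submitters' processing notes. GRCh38 is a human build, whereas 51912 identifiers are mouse Ensembl ones, so the build behind the values is uncertain. The sources used here do not name the program that made the FPKM, its strand setting or how reads with several matches were treated.

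Identifiers were given symbols, coordinates and transcripts of GENCODE M21 (GRCm38), 51633 with a symbol, and the identifier with the highest mean was kept per symbol. Genes with a mean of at least 1 FPKM were called expressed, a log2 ratio is that of FPKM + 1 (a pseudocount of 1) in the library with the Lig4-/- label over CH12F3, and the threshold was 2-fold. The GC adjustment subtracts a lowess curve (fraction 0.3, statsmodels 0.14.6) of log2 ratio on GC content, taken from the longest protein-coding transcript, or from the longest transcript where a gene has none. The protein-coding transcript was chosen after values were seen, since the longest annotated transcript of Ncapg is a retained intron; the closing section gives the other choice. The GC adjustment was tested on simulated log2 ratios with a straight-line trend on GC content. A curved trend, as in these data, was not simulated. Python 3.11.15 and pandas 2.3.3 were used. Depth is unknown, so no counting interval is given.

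Named are the 10 members, Lig4, and of each list the 2 highest, the 2 lowest and any other expressed gene at least 2-fold apart. Nsmce2 and Nsmce3 are named for their levels. Genes that overlap a member or lie within 1000 bases of it are named in part. Smc2os, Tmc4-ps, Scarna10, Gm28967, 1600023N17Rik and Mir7675 are left out, each at 1.15 FPKM or less in both libraries. One gene of the list of condensin partners and one B cell marker are not reported here and are left out of counts and sums. No gene is named for a pattern like a member's. The members and lists were chosen with earlier results of these data known. The alternatives tried were other pseudocounts, scalings, filters and fold thresholds, summed symbols, and adjustments for GC content and length.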

Additional observations from a re-analysis of the deposited data

How the results depend on the processing

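The 7 members 2-fold or more higher in the library with the Lig4-/- label became 4 after GC adjustment (also 4 on the longest annotated transcript, an alternative chosen after seeing the data), 2 after adjustment for GC content and length, and 3 at a 4-fold threshold. Under the other planned settings there were 5 to 7. The 1 member 2-fold or more lower, Ncaph2, became 0 when both libraries were scaled to the same total, after each of the 3 adjustments and at a 4-fold threshold. Shares of all expressed genes were computed only as reported (21.0% higher, 4.09% lower) and after GC adjustment (5.42% each). Counts under the other settings therefore have no background beside them. Ncaph2 was below 0 under all 8 alternatives for its log2 ratio, from -1.20 to -0.75. The median log2 ratio of the members, 1.74 as reported, was 1.02 with a pseudocount of 5 FPKM, 0.43 after GC adjustment, 0.47 on the longest annotated transcript and 0.33 with length as well. Smc2 (1.12 to 3.06) and Smc4 (1.16 to 2.88) were past 2-fold under all 8. Ncaph changed sign under the adjustments, to -0.058 for GC content, -0.013 with length and -0.0087 on the longest annotated transcript. Of the other values for single genes and subunit ratios, 69 stayed on their side of the 2-fold line and 20 came within it. The log2 change in the Smc2 to Ncaph2 ratio was 4.14 as reported, 3.72 on the FPKM + 1 scale and 2.01 after GC adjustment on that scale. For the other pairs the adjustment turned the order of the changes on the FPKM + 1 scale. They went from 1.35 to 0.69 for Ncaph to Ncaph2 and from -1.32 to -0.58 for Ncapd2 to Ncapd3. For Ncapg to Ncapg2 the change went from -0.23 to -0.75, and for Smc5 to Smc6 from -0.69 to -0.85. As reported, without the added 1 FPKM, these changes were 1.36, -1.44, -0.15 and -0.50. The condensin I to condensin II sum has no GC content of its own and was not adjusted. The cause of these shifts was not tested. No paired analysis was possible because each line has 1 library. Depth is unknown, which limits Smc5 and Smc6 most, at 1.04 and 1.74 FPKM in CH12F3.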

Other observations

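Several members start beside a gene that runs in the other direction, and the values of these neighbours were not used above. Gen1, which encodes a Holliday junction resolvase, starts 85 bases from Smc6 and measured 0.97 FPKM in CH12F3 against 9.29 FPKM in the library with the Lig4-/- label (log2 ratio 2.39, GC-adjusted 1.02), beside 2.45 and 1.09 for Smc6. Both transcripts have 40.4% GC. Lmf2, a lipase maturation factor gene, starts 60 bases from Ncaph2 and measured 72.3 and 42.1 FPKM (log2 ratio -0.77, GC-adjusted -0.40), lower in the same library as Ncaph2. Ift80, an intraflagellar transport gene, starts 168 bases from Smc4 and measured 0.88 and 4.0 FPKM (1.41, GC-adjusted 0.24). Lcorl, which overlaps the 3′ end of Ncapg by 3366 bases on the opposite strand, was at 0.21 and 1.72 FPKM (1.17, GC-adjusted -0.52), in the direction of Ncapg (1.73, GC-adjusted 0.31) only as deposited.

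Other neighbours went differently from the member as deposited. Vps26b, a retromer gene, starts 110 bases from Ncapd3 and was at 28.0 and 16.8 FPKM (log2 ratio -0.70), while Ncapd3 had 1.10. Trim59, whose 3′ end faces that of Smc4, was at 0.84 and 0.13 FPKM (-0.70, GC-adjusted -2.32), while Smc4 had 2.63 (GC-adjusted 1.24). The noncoding RNA D430020J02Rik starts 192 bases from Ncapg2 and was at 5.58 and 4.87 FPKM (-0.16, GC-adjusted -0.49), while Ncapg2 had 1.97 (GC-adjusted 1.07). Mrpl51, a mitochondrial ribosomal protein gene 100 bases from the start of Ncapd2, was at 62.4 and 72.4 FPKM (0.21), against -0.21 for Ncapd2. After GC adjustment both were below 0, Mrpl51 at -0.60 and Ncapd2 at -0.042. The part of shared reads or shared promoters in these values was not tested.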
